A study of Homo sapiens with 4 samples.

Results

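The single drugs IM and DSF were compared directly, gene by gene, in KBM5, an established BCR-ABL-positive human cell line from chronic myeloid leukemia in blast crisis. The comparison sets the library of cells given IM alone against that of cells given DSF alone. A library labelled CTR, read here as the control, and a library of cells given both (IM-DSF) were used to place each gene. Every group was 1 library of the same cell line, prepared with a stranded mRNA kit, and no dose, time or vehicle is given in the labels. The codes are not spelled out there and are read here as imatinib and disulfiram. Of 50868 genes in the deposited table, 11004 had a mean of at least 1 FPKM (fragments per kilobase of transcript, scaled to library size) over the 4 libraries and form the comparison. The difference is log2(FPKM + 1) in IM minus log2(FPKM + 1) in DSF, a scale that understates the change of low genes. Where 4 levels are given for a gene, they are FPKM in the order CTR, DSF, IM, IM-DSF.

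Imatinib occupies the ATP site of the BCR-ABL kinase. The kinase drives STAT5, which transcribes survival and feedback genes, and the RAS-ERK and MYC pathways, which sustain growth; blocking it in chronic myeloid leukemia cells is known to slow proliferation and can release myeloid maturation. Disulfiram inactivates aldehyde dehydrogenases, and as a copper complex its metabolite binds NPL4, an adaptor of the p97 segregase that feeds ubiquitinated proteins to the proteasome. The title of the study pairs the kinase with GPX4, the peroxidase that reduces lipid hydroperoxides.

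Each side is a single library, so differences have no replicates behind them and are described without a test. The library sizes recovered from the values were 14.5 M fragments (CTR), 14.7 M (DSF), 15.8 M (IM) and 12.4 M (IM-DSF). The 95% intervals beside folds come from approximate fragment numbers and cover counting error only; copies made by PCR make them too narrow. In bulk RNA, fewer cells of a type and less RNA per cell cannot be told apart. Granule genes of myeloid cells were abundant in all libraries, with summed levels of 2305, 2942, 3733 and 3743 FPKM in that order. Of 18 erythroid markers, 13 were listed at 0 in all 4 libraries, and their summed level of 29.3 FPKM (IM) to 42.6 FPKM (CTR) was nearly all TFRC, the transferrin receptor. Of 18 lymphoid markers, 2 passed the filter (CD4 and NKG7), with a summed level of 25.5 FPKM (CTR) to 42.3 FPKM (IM-DSF), while CD3E, MS4A1 and DNTT were at 0. Of 14 megakaryocyte markers, 3 passed, with a summed level of 11.95 FPKM (DSF) to 15.7 FPKM (IM), and PF4 and GP1BA were at 0; NFE2, a factor that granulocytes also express, was past the size rule given below. The part of these marker differences in the results was not tested. Mitochondrial genes held 30.1% of the summed FPKM in IM and 32.6% in DSF.

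The IM and DSF libraries were alike for most genes. The difference lay within 0.5 log2 unit for 91.8% of the 11004 genes, with a median of 0.02, and the central 90% of genes ran from -0.42 to 0.51. Differences of 1 log2 unit or more, a 2-fold change on this scale, counted as past the size rule. They comprised 73 genes higher in IM (0.663% of those tested) and 65 higher in DSF (0.591%), together 1.25%. Of the 73, 54 were protein-coding and 34 were clear genes; of the 65, 53 and 31 were. A clear gene here is protein-coding, is no read-through gene and shares no exon sequence with another gene on the same strand in GENCODE 29, as 8034 of the genes tested are. Such overlap was present in 34.2% of the genes higher in IM and 41.5% of those higher in DSF, against 13.8% of all genes tested. Genes past the rule had lower levels, with a median of 3.54 FPKM (higher in IM) and 4.09 FPKM (higher in DSF) against 5.28 FPKM over all. Clear genes were also divided into ranges of level, which held 3535, 3334, 1036 and 129 genes from lowest to highest. In that order 21, 13, 0 and 0 were past the size rule toward IM, and 17, 9, 5 and 0 toward DSF. Relative to the size of the ranges, the genes higher in DSF showed no steady fall with level. The highest range holds too few genes for its 0 to show a trend.

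**Figure D1:**
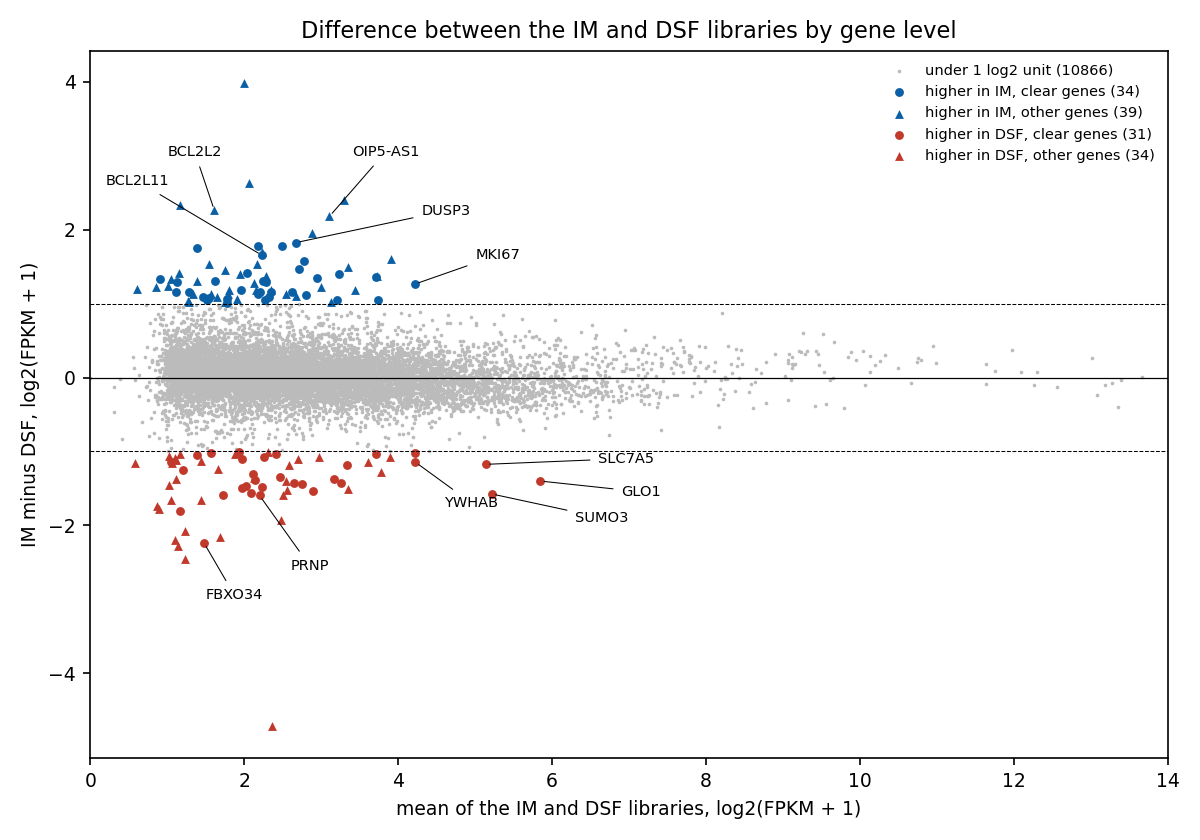
Difference between the IM and DSF libraries (vertical, log2(FPKM + 1)) against their mean level (horizontal, same scale) for 11004 genes, 1 point each; dashed lines mark the size rule of 1 log2 unit, circles are clear genes and triangles are other genes. The 73 genes higher in IM (blue) and 65 higher in DSF (red) lie mostly at low and middle levels, with GLO1, SUMO3 and SLC7A5 the most abundant of those higher in DSF.

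The 65 clear genes past the rule were sorted into 4 patterns by the values of all 4 libraries, with definitions made after the values had been seen. The IM and DSF values that the size rule used thus enter the patterns too. A gene chosen for its difference between IM and DSF is therefore likely to fall into 1 of them, and the shares over all clear genes given below are no like comparison. In 15 genes both libraries that had received IM lay at least 0.5 log2 unit beyond both that had not, 7 on the high side and 8 on the low side. In 9 genes both libraries that had received DSF lay apart in the same way, 4 high and 5 low. In 21 genes the IM library stood alone, 5 high and 16 low, and in 18 genes the DSF library stood alone, 2 high and 16 low. Standing alone means that the distance to the nearest of the other 3 libraries is at least 0.5 log2 unit and larger than the range of those 3. GABARAPL1, described with the autophagy genes, was among the 2 that met neither definition. Among all 8034 clear genes both IM libraries were high in 1.39% and low in 0.82%, and both DSF libraries were high in 0.09% and low in 0.15%. The IM library was low alone in 0.54% and high alone in 0.21%, and the DSF library was low alone in 0.50% and high alone in 0.12%. Both stood alone less often than the other libraries. CTR was low alone in 0.96% and high alone in 0.41%, and IM-DSF was low alone in 1.01% and high alone in 0.70%.

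**Figure D2:**
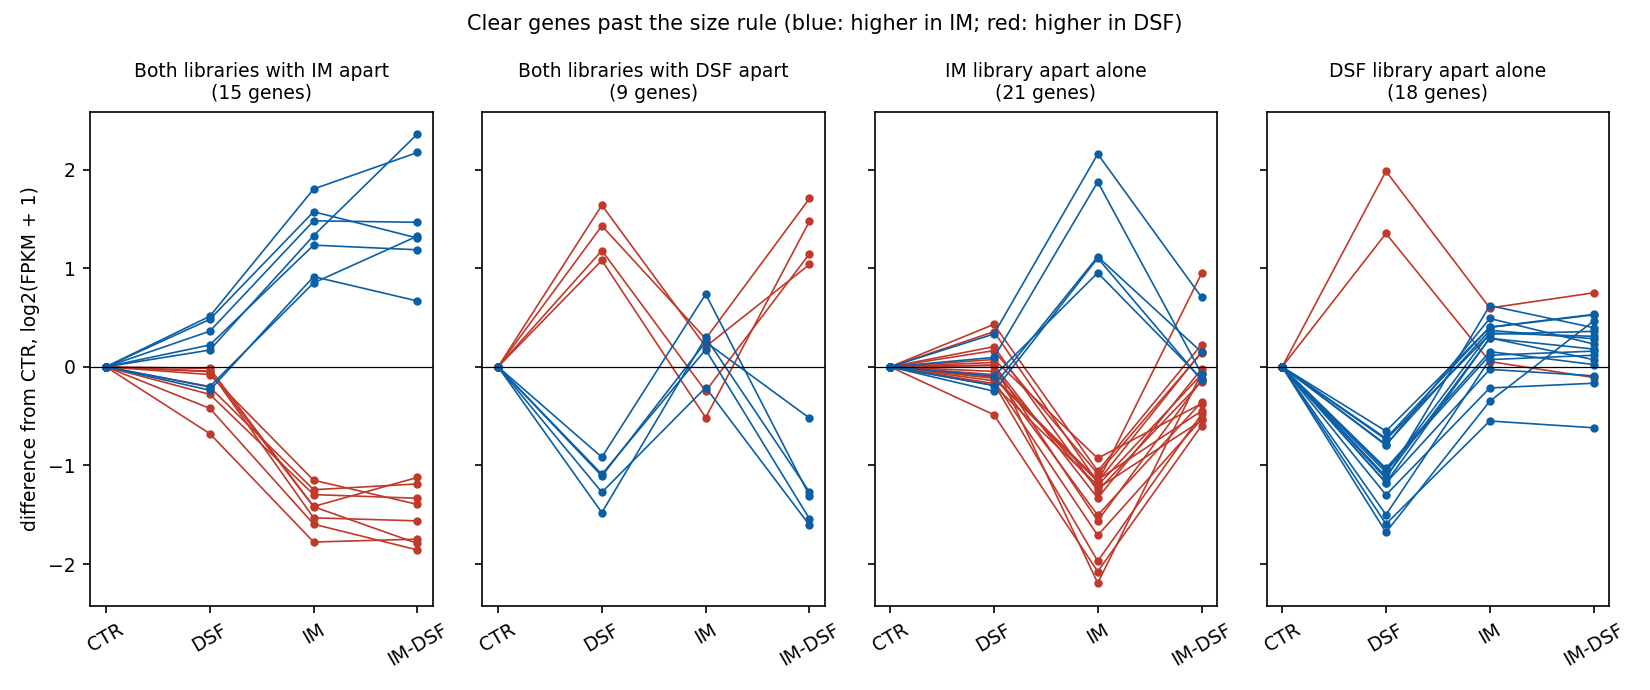
Difference from CTR (vertical, log2(FPKM + 1)) in the 4 libraries (horizontal) for the clear genes past the size rule, 1 line per gene, blue for genes higher in IM and red for genes higher in DSF. Of the 4 panels, the first 2 show the 15 genes in which both IM libraries lie apart and the 9 in which both DSF libraries do. The last 2 show the 21 in which the IM library is alone and the 18 in which the DSF library is alone. In these the combined library lies near CTR for most genes, which the definition of standing alone largely sets.

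The 7 genes that were high in both libraries given IM had varied roles. TP53INP1, a stress-induced p53 target that promotes cell cycle arrest and autophagy, had 1.18, 2.11, 6.62 and 8.84 FPKM. Its level in IM was 3.13 times that in DSF (95% interval 2.65 to 3.73). CCNG2, the unconventional cyclin G2 of resting cells, had 1.45, 2.42, 6.29 and 5.06 FPKM in the same order. DNASE2, the acid DNase of lysosomes, had 1.75, 2.09, 5.91 and 13.1 FPKM, and IM was 2.82 times DSF (2.17 to 3.75). In these 3 genes DSF lay above CTR, by 0.51 log2 unit in TP53INP1, and both IM libraries lay further above it. IRF5, an interferon regulatory factor of monocytes and macrophages, had 1.07, 1.41, 3.86 and 3.70 FPKM. It was also the gene just inside the size rule, at 1.01 log2 units, while CCR2, a chemokine receptor of monocytes (9.01, 3.65, 8.29 and 7.09 FPKM), lay just outside at 0.998. In the other direction BBX, an HMG-box factor (4.12, 4.39, 1.69 and 2.96), lay just inside and TIMM8B, a mitochondrial import chaperone (20.5, 19.9, 9.47 and 7.48), just outside. C6orf89 (6.39, 5.43, 12.3 and 17.5 FPKM), LRRC14B (2.67, 3.72, 9.25 and 9.15) and FAM219B (0.706, 0.448, 2.22 and 1.71) made up the 7.

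The 8 genes that were low in both libraries given IM had varied roles too. CISH, a feedback inhibitor of cytokine receptors and a direct STAT5 target, had 8.18, 4.74, 1.68 and 1.74 FPKM. CDC25A, the phosphatase that releases CDK2 for S-phase entry, had 31.3, 25.6, 12.1 and 11.8 FPKM. SLC7A5, the leucine transporter LAT1, had 69.7, 51.8, 22.4 and 18.5 FPKM, and DSF was 2.31 times IM (2.18 to 2.45). In all 3 of these the DSF library lay between CTR and the IM libraries. A flat DSF value was seen in others: GLO1, which clears methylglyoxal, had 93.3, 92.2, 34.3 and 42.3 FPKM, and DSF was 2.69 times IM (2.52 to 2.87). PSME3, the nuclear proteasome activator REG gamma, had 13.9, 13.4, 4.57 and 3.30 FPKM. ZNF184, a KRAB zinc finger gene, had 7.11, 6.87, 1.81 and 1.75 FPKM. For these 3 the CTR and DSF libraries were nearly equal and the IM libraries were both low. CELF2, an RNA-binding splicing regulator (7.79, 6.62, 2.71 and 2.86 FPKM), and ERI1, an exoribonuclease of histone mRNA ends (6.34, 5.95, 2.31 and 1.79), had the same form.

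The genes that followed DSF in both libraries were few and had varied roles. PRNP, the prion protein, a copper-binding membrane protein, had 2.77, 6.97, 1.64 and 9.50 FPKM. Its level in DSF was 4.25 times that in IM (3.28 to 5.55), and it was the 1 clear gene at least 0.5 log2 unit above CTR in DSF and as far below it in IM. RAB31, a Golgi and endosome GTPase, had 2.54, 10.03, 3.08 and 6.27 FPKM. CAB39, the scaffold of the kinase LKB1, had 5.94, 14.7, 4.85 and 14.4 FPKM, and YWHAB, a 14-3-3 adaptor, had 9.31, 26.8, 11.6 and 32.6. On the low side, MKI67, the proliferation antigen Ki-67, had 24.5, 10.99, 27.8 and 7.76 FPKM, so that IM was 2.53 times DSF (2.40 to 2.66). BCL2L11, the pro-apoptotic BH3 protein BIM, had 3.99, 1.64, 7.32 and 1.019 FPKM, and IM was 4.45 times DSF (3.75 to 5.30). The IM library was above CTR and both DSF libraries were below it; BCL2L11 shares exon sequence with a gene on the opposite strand. ZKSCAN1, a zinc finger gene (7.44, 2.03, 9.38 and 2.503 FPKM), KCTD20 (16.6, 7.18, 19.97 and 11.3) and GMFB, glia maturation factor beta (4.69, 1.36, 3.92 and 0.872), were low in both DSF libraries as well.

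A large group of clear genes, 21 with IM and 18 with DSF, was apart in 1 single-drug library alone. FBXO34 (chromosome 14, 55271303 to 55361918), an F-box protein of ubiquitin ligases, had the largest difference among clear genes, with 4.86, 5.04, 0.281 and 4.61 FPKM, and DSF was 17.9 times IM (11.4 to 31.3). SUMO3, a ubiquitin-like modifier, was the most abundant gene of this kind, at 62.4, 63.01, 20.498 and 56.8 FPKM. ERCC6L, a mitotic DNA translocase, had 3.72, 3.20, 0.206 and 2.39 FPKM. PTP4A3, a phosphatase of the PRL family, had 7.02, 4.73, 0.903 and 4.303, and GRPEL2, a mitochondrial import cochaperone, 7.10, 6.34, 1.48 and 4.59. In all of these the IM library was the lowest, although IM-DSF had received IM too. The other 3 libraries lay close together in FBXO34 and SUMO3. IM-DSF minus CTR was -0.48 log2 unit in ERCC6L, -0.60 in PTP4A3 and -0.53 in GRPEL2, in the direction of IM. CORO1C, an actin-binding coronin (9.87, 9.29, 2.83 and 7.48), TMEM250 (4.86, 5.75, 1.45 and 4.28) and C17orf80 (3.88, 5.57, 1.34 and 4.70) were low in IM alone as well. GOLGA8A, which has near-identical copies, was also low in IM alone, but its other 3 libraries were further apart (8.81, 11.6, 3.36 and 17.9). The 5 genes high in the IM library alone were led by DUSP3, a phosphatase of ERK and JNK, with 1.69, 2.38, 10.99 and 3.38 FPKM, where IM was 4.61 times DSF (3.91 to 5.44). FAM217B (1.29, 1.44, 7.39 and 1.18), STK4, the Hippo kinase MST1 (4.73, 3.83, 11.3 and 4.22), and ZBTB7B, the transcription factor ThPOK (2.44, 2.02, 6.47 and 2.82), had the same form.

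A low DSF library alone accounted for 16 of the 34 clear genes higher in IM. ZNF24, a zinc finger gene, had 10.2, 2.98, 10.8 and 11.2 FPKM. EDEM3, a mannosidase of endoplasmic reticulum protein disposal, had 11.5, 4.77, 14.2 and 13.1 FPKM. In both the other 3 libraries were close to each other, although IM-DSF had received DSF too. TAF8, a TFIID subunit (4.28, 1.52, 5.70 and 5.55), ZNF260 (2.13, 0.427, 3.82 and 3.12) and JRK (2.78, 0.182, 1.97 and 4.22) were also low in DSF alone, with a wider spread of the other 3 libraries. ZNF260 and JRK have exon overlap on the opposite strand. The 2 genes high in DSF alone were KCTD7 (0.794, 6.09, 1.71 and 2.02 FPKM) and MDFIC (1.65, 5.76, 1.75 and 1.46), a regulator of MyoD family factors.

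The place of the other libraries differed between large and moderate differences. CTR lay nearer to IM than to DSF on the log2 scale in 41 of the 73 genes higher in IM (56.2%), against 30.6% of all genes tested. It lay nearer to DSF in 45 of the 65 genes higher in DSF (69.2%), against 69.4% of all. The first share did not hold with a size rule of 1.5-fold: of 389 genes then higher in IM, CTR was nearer to IM in 126 (32.4%). IM-DSF lay nearer to IM in 48 of the 73 (65.8%) and nearer to DSF in 38 of the 65 (58.5%); over all genes tested it was nearer to IM in 66.7%. With the 1.5-fold rule, 52.0% of 221 genes higher in DSF had IM-DSF nearer to IM, the opposite of the share at 2-fold.

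Most target genes of STAT5 and ERK were lower in IM than in DSF, many of them by a small margin. Of 12 STAT5 targets past the filter, 9 lay below 0. Their median was -0.12, but -0.37 at a mean of at least 5 FPKM and -0.06 without the filter. The counting interval of the fold lay below 1 in 4 of the 12 and above 1 in 1. Of the 12, 2 (CISH and CDC25A) were past the size rule toward DSF, where 0.591% of all genes were. PIM1, a survival kinase, had 16.05, 8.18, 4.67 and 2.63 FPKM, and ID1, an inhibitor of differentiation, had 8.02, 5.80, 3.21 and 1.73. For both, the levels were ordered from CTR through DSF and IM to the combination. CCND3, cyclin D3, was similar with either drug, at 6.72, 3.02, 3.25 and 2.67 FPKM, as was MCL1, an anti-apoptotic protein, at 32.3, 30.8, 34.5 and 34.3. Of 9 ERK targets, 7 lay below 0 (median -0.25) and 0 were past the size rule; DUSP5, an ERK phosphatase (1.79, 1.64, 0.822 and 0.535 FPKM), the AP-1 subunit FOSL1 (3.21, 1.85, 1.06 and 0.827) and the ETS factor ETV4 (1.70, 1.37, 0.736 and 0.501) were the most different. Over all 11004 genes the median was 0.02.

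The promoter of CISH is shown because it is the 1 STAT5 target, of 6 with a promoter in the RefSeq table (GRCh38.p14), that holds the STAT motif TTCNNNGAA. The motif was searched on both strands, which are equivalent for this palindrome, from 250 bases before to 50 after the start. The run lies on the minus strand at chr3:50611725-50612024, and capitals mark its 4 matches.
CISH: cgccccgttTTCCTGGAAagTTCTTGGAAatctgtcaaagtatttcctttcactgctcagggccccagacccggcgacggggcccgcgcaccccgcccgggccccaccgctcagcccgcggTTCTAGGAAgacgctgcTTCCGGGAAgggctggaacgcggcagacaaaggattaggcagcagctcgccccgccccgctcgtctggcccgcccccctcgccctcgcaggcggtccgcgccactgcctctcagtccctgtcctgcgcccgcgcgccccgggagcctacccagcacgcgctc
The motif was present in 6.46% of 5646 promoters of genes tested, in 3 of 32 promoters of genes higher in IM and in 4 of 26 of genes higher in DSF. A match describes letters and is no evidence of binding.

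Growth and cell cycle genes were lower in IM than in DSF with few exceptions. All 30 MYC targets of ribosome biogenesis lay below 0 (median -0.36), and in each the counting interval of the fold lay below 1; 0 were past the size rule. PPAN, a ribosome assembly factor, had the largest difference of the list, at 16.3, 15.6, 7.75 and 8.82 FPKM, and shares exons with a read-through gene. RRP9, of the small nucleolar ribonucleoproteins, had 48.97, 44.8, 25.3 and 25.8 FPKM, and BYSL, a ribosome assembly factor, had 12.3, 13.2, 7.95 and 7.89. For these genes DSF stayed near CTR and the IM libraries were alike. Of 30 G1/S genes 27 lay below 0 (median -0.28), with the replication factor MCM10 at 10.5, 9.49, 6.07 and 6.14 FPKM. Of 30 G2/M genes 28 lay below 0 (median -0.23), with the mitotic kinase AURKA at 20.48, 16.3, 11.3 and 10.6 FPKM. MKI67 was the 1 member past the size rule toward IM (0.663% of all genes), whereas 28 of the 30 lay toward DSF.

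Most amino acid genes were lower in IM than in DSF, and integrated stress response targets were split. Of 13 serine and one-carbon enzymes 10 lay below 0 (median -0.33), with PHGDH, the first enzyme of serine synthesis, at 19.7, 16.6, 10.9 and 8.86 FPKM and PSAT1, the second, at 69.1, 56.5, 37.99 and 34.3. Of 12 amino acid transporters 10 lay below 0 (median -0.14), with SLC7A5 past the size rule toward DSF (0.591% of all genes) and SLC38A1, a glutamine carrier, at 20.6, 15.6, 10.2 and 9.74. Of 20 aminoacyl-tRNA synthetases 16 lay below 0 (median -0.23), with GARS1, for glycine, at 70.4, 60.3, 44.1 and 40.6. The graded order from CTR through DSF to IM was thus present in several amino acid genes. The integrated stress response targets had 7 above and 8 below 0 (median -0.01), with the pseudokinase TRIB3 at 11.4, 5.52, 3.69 and 4.69 FPKM and DDIT3, the factor CHOP, at 1.504, 1.31, 2.09 and 2.57.

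Heat shock genes were lower in IM than in DSF in 19 of 23 cases (median -0.25), with 0 past the size rule. FKBP4, an HSP90 cochaperone, had 59.95, 51.5, 35.4 and 30.3 FPKM. HSPA8, the constitutive HSP70, had 134, 114, 79.4 and 61.8, and IM was 0.697 times DSF (0.674 to 0.720). Both had the order CTR, DSF, IM, IM-DSF. CHORDC1, an HSP90 cochaperone, had a difference of 0.04. Of 12 heat shock genes with a RefSeq promoter 7 held the heat shock motif GAANNTTC, against 4.3% of 5646 promoters of genes tested. The promoters of HSPA8 (minus strand, chr11:123062087-123062386) and CHORDC1 (minus strand, chr11:90223000-90223299) are shown because the first gene differed between the drugs and the second, with more matches, had a difference near 0; capitals mark 2 and 3 matches.
HSPA8: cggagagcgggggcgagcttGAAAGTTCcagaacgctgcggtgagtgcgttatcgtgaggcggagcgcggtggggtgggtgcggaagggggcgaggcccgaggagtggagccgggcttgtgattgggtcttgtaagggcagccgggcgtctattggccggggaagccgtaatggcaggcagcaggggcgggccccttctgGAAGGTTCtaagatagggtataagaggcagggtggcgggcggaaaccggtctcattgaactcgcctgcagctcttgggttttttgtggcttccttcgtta
CHORDC1: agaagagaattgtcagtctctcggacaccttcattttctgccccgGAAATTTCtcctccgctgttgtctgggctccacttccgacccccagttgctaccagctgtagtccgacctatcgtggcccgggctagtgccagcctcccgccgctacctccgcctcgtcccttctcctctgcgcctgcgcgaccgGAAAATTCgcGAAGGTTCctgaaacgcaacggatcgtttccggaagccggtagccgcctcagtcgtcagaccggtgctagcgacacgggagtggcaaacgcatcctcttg
Endoplasmic reticulum stress genes were divided, 10 above and 13 below 0 (median -0.06). Of 35 proteasome subunits 30 lay below 0 (median -0.19), with PSME3 past the size rule toward DSF (0.591% of all genes) and the catalytic subunit PSMB6 at 27.9, 23.1, 12.7 and 12.5 FPKM.

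Myeloid granule, surface and lysosomal genes were higher in IM than in DSF. All 12 azurophil granule genes past the filter lay above 0 (median 0.25). LYZ, lysozyme, had 154, 217, 399 and 599 FPKM, and IM was 1.84 times DSF (1.78 to 1.90). CFD, the protease adipsin, had 25.9, 48.9, 84.7 and 101.8 FPKM, and AZU1, azurocidin, had 111, 169.5, 241 and 247. In each the order was CTR, DSF, IM, IM-DSF, and 0 of the list were past the size rule. Of 16 monocyte and myeloid surface genes 13 lay above 0 (median 0.33, but 0.16 without the filter and 0.17 over clear genes), with CSF3R, the receptor of granulocyte colony-stimulating factor, at 5.003, 9.50, 18.04 and 22.1 FPKM and MS4A6A at 0.929, 2.78, 5.81 and 9.31. CEBPD, a C/EBP factor of myeloid maturation, had 16.5, 22.2, 39.8 and 27.6 FPKM, whereas MYB, a progenitor factor, had 30.96, 41.5, 32.6 and 32.9. Of 5 stem and progenitor markers past the filter all lay above 0 (median 0.51, but 0.02 over all 14 markers without the filter and 0.29 over clear genes), led by IL1RAP (2.78, 2.13, 3.66 and 1.79) and the receptor FLT3 (10.4, 13.9, 20.5 and 20.4); CD34 was at or under 0.00554 FPKM in all libraries and KIT was at 0.

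Of 28 lysosome genes 27 lay above 0 (median 0.32), and DNASE2 was the 1 past the size rule, where 0.663% of all genes were. FUCA1, a fucosidase, had 8.89, 12.2, 22.7 and 42.3 FPKM, CTSO, a cathepsin, had 1.42, 2.003, 4.71 and 6.91, and NPC2, a cholesterol carrier, had 4.15, 5.09, 9.18 and 8.99. DSF again lay between CTR and IM in these 3. CTSD, cathepsin D, had a different order, at 45.3, 36.0, 62.8 and 70.2 FPKM, with DSF below CTR. Of 25 autophagy genes 20 lay above 0 (median 0.13), and 2 members of the ATG8 family went in opposite directions. GABARAPL1 had 2.40, 0.952, 3.81 and 5.56 FPKM, and IM was 3.99 times DSF (2.998 to 5.45), while MAP1LC3B had 3.27, 3.58, 1.70 and 4.27, and IM was 0.476 times DSF (0.387 to 0.5851). Both share exon sequence with an opposite-strand gene.

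**Figure D3:**
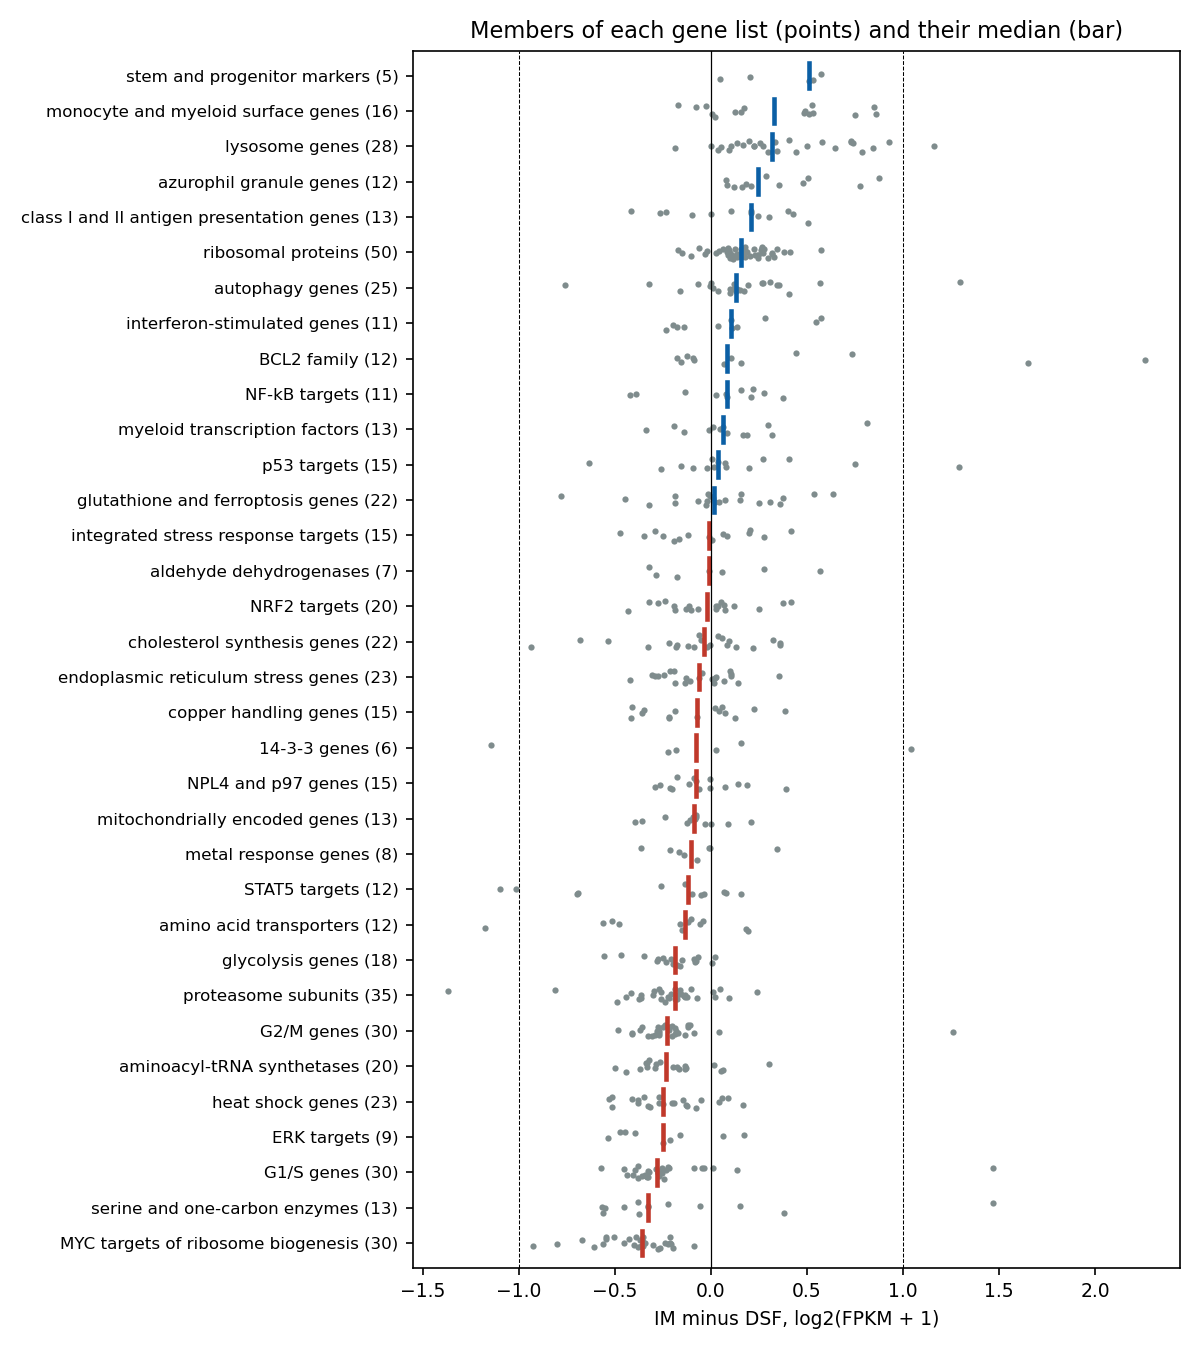
Members of each gene list past the filter (grey points, number in brackets) by their difference between IM and DSF (horizontal, log2(FPKM + 1)); bars are list medians and dashed lines the size rule. Medians run from -0.36 for MYC targets of ribosome biogenesis to 0.51 for stem and progenitor markers, and single members such as MKI67 and BCL2L2 lie far from their lists.

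Of the genes tied to the known actions of disulfiram, 0 were past the size rule, where 1.25% of all genes tested were in either direction. Lists this small cannot show a difference from that share. Of 16 aldehyde dehydrogenases 7 passed the filter (median -0.01, 3 above and 4 below 0). ALDH2, the enzyme of acetaldehyde clearance, was low throughout, at 0.0124, 0.0735, 0.137 and 0.181 FPKM, and ALDH1A1 was at 0.227, 0.374, 0.296 and 0.265. ALDH4A1, of proline breakdown, had the largest difference in the family, at 2.15, 3.07, 5.04 and 5.75 FPKM. NPLOC4, which encodes NPL4, had 11.2, 9.47, 8.92 and 9.39 FPKM, and VCP, which encodes p97, had 53.6, 49.7, 40.4 and 41.9; the 15 genes of this machinery had a median of -0.08. Metallothioneins, which buffer zinc and copper, were lower than CTR in both: MT1E had 16.3, 10.9, 9.83 and 5.98 FPKM and MT1G 8.67, 6.76, 5.03 and 4.28. Of 8 metal response genes 7 lay below 0 (median -0.11), and SLC30A1, the zinc exporter, was the exception at 18.5, 13.2, 17.03 and 17.97. The counting interval of the fold lay below 1 in 0 of the 8 and above 1 in 1, SLC30A1. The 15 copper handling genes had a median of -0.07, with the importer SLC31A1 at 11.99, 10.5, 7.999 and 7.98.

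GPX4 and the fusion partners had nearly equal levels with either drug, although reads from BCR and ABL1 cannot be assigned to the fusion. GPX4 (chromosome 19, 1103926 to 1106791) had 20.1 FPKM in DSF and 19.7 in IM, and the ratio of IM to DSF was 0.982 (0.876 to 1.10). ABL1 had a ratio of 1.01 (0.965 to 1.06), with a difference of 0.02 that was negative in 3 rescalings, and BCR of 0.959 (0.867 to 1.06). All 3 counting intervals included 1, which leaves smaller differences undetectable at this depth. The 22 glutathione and ferroptosis genes had a median of 0.01, which was at or below -0.0019 after rescaling to TPM, with both sets of size factors and with mitochondrial genes left out, and 0 were past the size rule. PRDX1, a peroxiredoxin, was lower with IM at 168.7, 139, 80.8 and 70.95 FPKM, as was AIFM2, the ubiquinone reductase FSP1, at 1.48, 1.26, 0.659 and 1.17. GPX1, a glutathione peroxidase (50.1, 54.8, 80.04 and 150.5), and SLC40A1, the iron exporter ferroportin (1.35, 1.58, 3.02 and 4.62), were higher with IM. The 20 NRF2 targets were evenly divided, 10 above and 10 below 0 (median -0.02).

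The BCL2 family had the widest range of differences among the lists, from -0.18 to 2.26. Of 12 BCL2 family genes past the filter 2 were past the size rule toward IM, BCL2L11 and BCL2L2, where 0.663% of all genes were. The median was 0.09, but -0.09 at a mean of at least 5 FPKM and -0.01 over clear genes. BCL2L2, the anti-apoptotic BCL-W, had 5.76, 0.396, 5.69 and 5.32 FPKM, and IM was 14.4 times DSF (9.67 to 23.1). Its exons are shared with the read-through gene BCL2L2-PABPN1, so the value is uncertain. BMF, another BH3 protein, had 3.07, 3.70, 6.82 and 8.40 FPKM, while BCL2 had 7.65, 7.72, 6.84 and 6.26. The 14-3-3 family also held 1 gene past the size rule in each direction (background 0.663% toward IM and 0.591% toward DSF): YWHAB toward DSF and YWHAH toward IM, the latter at 27.1, 8.31, 18.2 and 17.3 FPKM. Of 15 p53 targets TP53INP1 was the 1 past the size rule, against 0.663% of all genes (median 0.04, but -0.02 with mitochondrial genes left out); BTG2, an antiproliferative gene, had 1.63, 1.89, 3.87 and 3.41, and GADD45A, a stress gene, 2.66, 4.32, 2.43 and 2.24.

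Glycolysis genes were mostly lower in IM than in DSF, and ribosomal protein genes mostly higher. Of 18 glycolysis genes 16 lay below 0 (median -0.18), with LDHA, lactate dehydrogenase A, at 68.9, 53.3, 38.3 and 44.8 FPKM. The 22 cholesterol synthesis genes had a median of -0.04, with HMGCS1, an early enzyme, at 15.7, 11.1, 6.56 and 11.96 FPKM. Of 50 ribosomal protein genes 44 lay above 0 (median 0.16); these genes have many near-identical pseudogenes. The 13 mitochondrially encoded genes had a median of -0.08. Of 13 antigen presentation genes 8 lay above 0 (median 0.21), with HLA-E at 30.8, 39.2, 55.98 and 62.8 FPKM, and 11 interferon-stimulated genes had a median of 0.10, with STAT2 at 4.53, 5.42, 8.38 and 10.3. The 11 NF-kB targets had a median of 0.09, with TNF at 4.98, 2.19, 1.43 and 0.911.

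**Figure D4:**
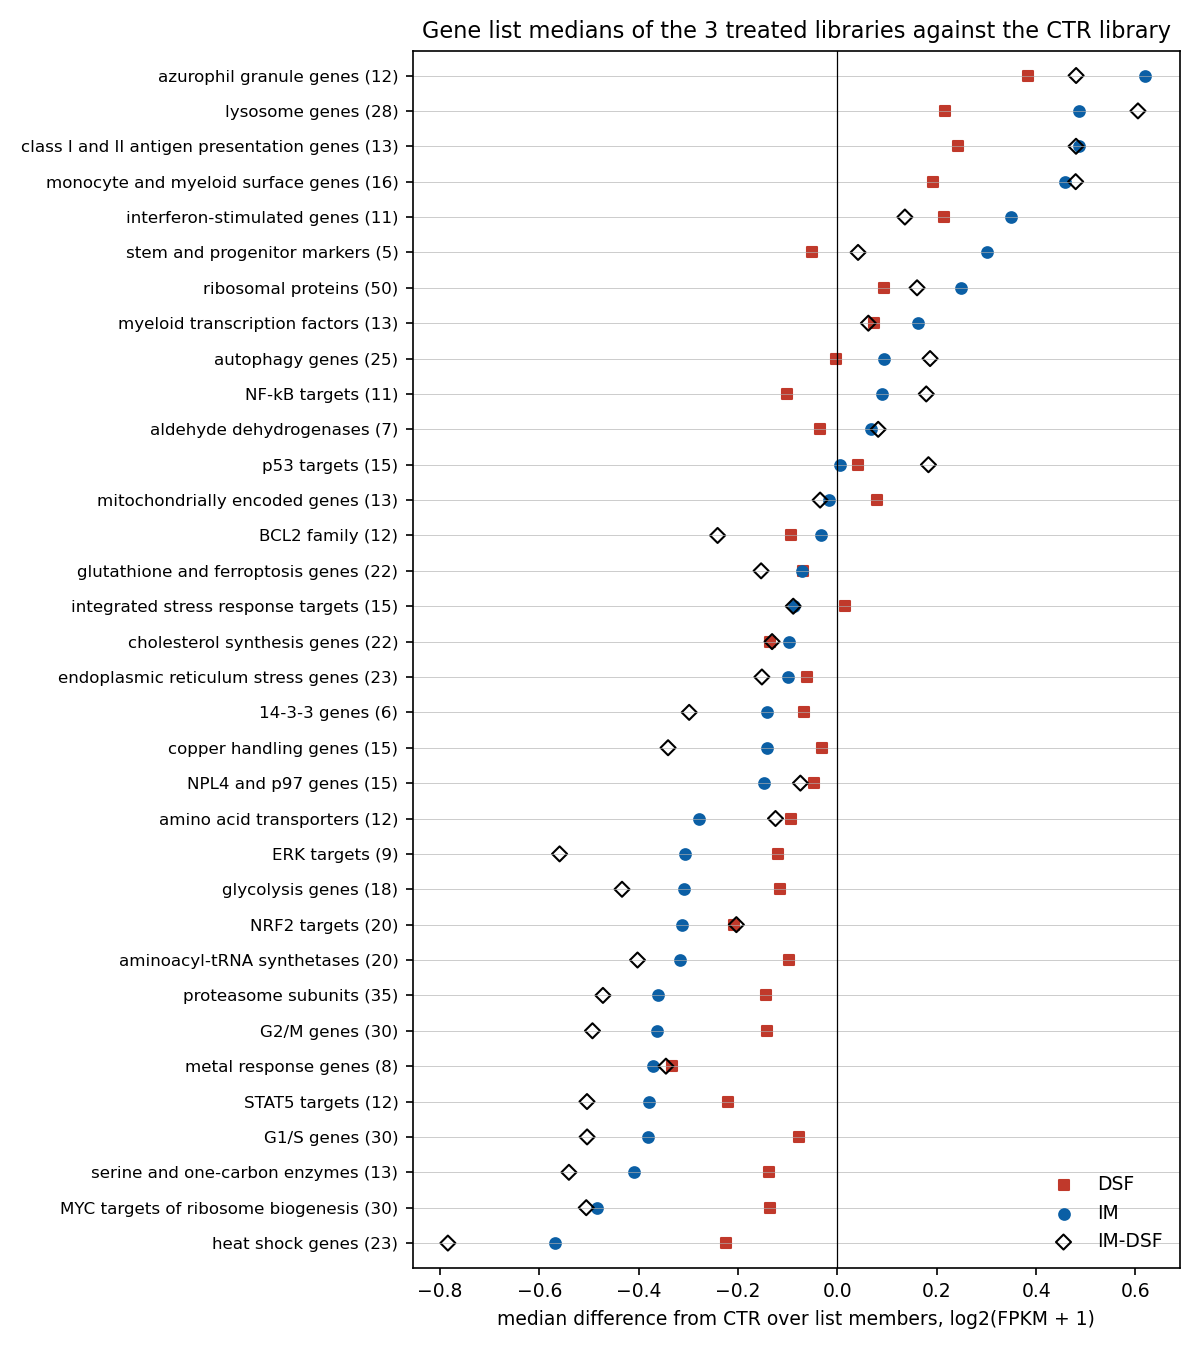
Median difference from CTR over the members of each gene list (horizontal, log2(FPKM + 1)) in DSF (red squares), IM (blue circles) and IM-DSF (open diamonds), for lists with at least 5 members past the filter. The 3 values of a list share the CTR library; for heat shock genes they are -0.22, -0.57 and -0.78, and for azurophil granule genes 0.38, 0.62 and 0.48.

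List medians of the single drugs against CTR had 1 sign in some lists and opposite signs in others. The values share the CTR library and are given as a description. MYC targets of ribosome biogenesis had a median of -0.14 in DSF and -0.48 in IM, G1/S genes -0.08 and -0.38, and proteasome subunits -0.14 and -0.36. Lysosome genes had 0.22 and 0.49, and monocyte and myeloid surface genes 0.19 and 0.46. Metal response genes were nearly equal at -0.33 and -0.37, as were glutathione and ferroptosis genes at -0.07 and -0.07. Opposite signs in DSF and IM were present in stem and progenitor markers (-0.05 and 0.30), NF-kB targets (-0.10 and 0.09), integrated stress response targets (0.02 and -0.09) and mitochondrially encoded genes (0.08 and -0.02). They were also present in aldehyde dehydrogenases (-0.035 and 0.07) and autophagy genes (-0.0021 and 0.09). Medians this near 0 have no firm sign, and the medians against CTR were not recomputed under other scalings.

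Some of the largest differences fell on genes whose exons are shared, and their values are uncertain. The read-through gene URGCP-MRPS24 had 2.51, 3.25 and 21.5 FPKM in CTR, DSF and IM and was listed at 0 in IM-DSF, while the partner genes URGCP (4.26, 3.90, 3.71 and 3.38) and MRPS24 (15.7, 15.996, 12.1 and 10.8) differed little. CFAP298-TCP10L had 4.05 FPKM in IM and was listed at 0 in DSF, and NDUFC2-KCTD14 had 7.03, 1.61, 7.47 and 2.75. In the other direction ISY1-RAB43 had 4.50 FPKM in DSF and was listed at 0 in IM, RPL17-C18orf32 had 16.2, 16.1, 5.03 and 22.03, and STON1-GTF2A1L had 1.24 in DSF and was listed at 0 in IM. The widest differences of all were in 2 protein-coding genes with clone names, singled out after their values were seen: AC009133.22, which overlaps QPRT and SPN, had 14.8 and 17.0 FPKM in IM and IM-DSF and was listed at 0 in CTR and DSF, and AC011511.4, which overlaps FDX2 and RAVER1, had 25.1 FPKM in DSF and was listed at 0 elsewhere. OIP5-AS1, a noncoding RNA with exon overlap to OIP5 on the opposite strand, had 12.9, 3.05, 17.3 and 17.9 FPKM. HNRNPA1L2, a near-copy of HNRNPA1, had 14.8, 2.76, 13.5 and 12.8, CIPC, a circadian repressor, 0.692, 3.79, 0.523 and 0.652, JPT2 11.3, 8.84, 2.27 and 2.23, and ERVK3-1 7.20, 8.44, 2.57 and 8.96.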

How the data were processed

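One deposited table gives FPKM per gene for the 4 KBM5 libraries; the submitters' processing notes name HISAT2 2.0.4 and GRCh38.p14. The gene counter, strand setting and gene lengths behind the FPKM are not stated by the labels or file headers used. Single-exon genes gave whole fragments for 89.0 to 90.6% of values (tolerance 0.05), multi-exon genes for 29.8 to 32.2%, so no count test was run and fragment numbers are approximate.

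Genes averaging 1 FPKM or more across the libraries were kept and compared as log2(FPKM + 1). Exact conditional binomial 95% intervals of the FPKM ratio used GENCODE 29 exon lengths, which matched 50111 of 50868 identifiers; positions, biotypes and overlaps come from there too. The size rule was tested on simulated data. RefSeq promoters were found for 5646 genes tested; the table is not complete. Python 3.11.15, pandas 2.3.3, scipy 1.17.1 and bedtools 2.31.1 were used.

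The members, gene lists (37) and the naming rule were chosen with earlier results of these data known. The rule names the title genes, the 15 clear genes highest and lowest, 3 read-through and 3 other uncertain genes per direction, genes on opposite sides of CTR, the genes next to the size rule, and the 4 most different members of each list. Other list members, such as ALDH2, NPLOC4, CCND3, MCL1 and MT1E, were named for their roles, and other genes of the 4 patterns after their values were seen. DUSP6 and FOS were named for lying above 0. Some genes that the rule names are not reported here. Alternatives were another pseudocount, filter, size rule, rescaling to TPM, 2 sets of size factors, leaving out mitochondrial genes and keeping clear genes only.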

Additional observations from a re-analysis of the deposited data

How the results depend on the processing

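The counts past the size rule, 73 higher in IM and 65 higher in DSF, moved with several settings. They were 214 and 128 with a pseudocount of 0.1, 358 and 236 after rescaling to TPM, 26 and 26 at a mean of at least 5 FPKM, and 34 and 31 over protein-coding genes without same-strand overlap. With a size rule of 1.5-fold they were 389 and 221. No filter, both sets of size factors and leaving out mitochondrial genes kept both counts within 1.5 times. At 1.5-fold, CTR lay nearer to IM in 32.39% of genes higher in IM and in 37.57% of the clear ones, and IM-DSF lay nearer to IM in 52.04% of genes higher in DSF and in 52.85% of the clear ones, each on the other side of 50% from the 2-fold rule; the cause was not tested. Of the genes recomputed under each setting, which leave out most list members, ABL1 changed sign: its difference of 0.02 was -0.02 with median-of-ratios factors, -0.01 with trimmed-mean factors and -0.04 without mitochondrial genes. C18orf32 and STON1 passed the size rule with a pseudocount of 0.1 and after rescaling to TPM. List medians near 0 changed sign for the BCL2 family (-0.09 at 5 FPKM, -0.01 over clear genes), p53 targets, glutathione and ferroptosis genes, aldehyde dehydrogenases (0.0035 without the filter) and copper handling genes (0.02 without the filter). Without the filter the antigen presentation median was 0.02, azurophil granule genes 0.14 and ERK targets -0.14. No library could be left out, with 1 library per group. No paired analysis was possible because each group is 1 library and its replicate number is only a name. Depth limits genes of low level: at this depth a gene listed at 0 may still be expressed.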
